A study of Phaseolus vulgaris with 6 samples.

Results

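Plant proteases fall into several families, and 118 genes grouped under 4 of them were followed here in the stem apex of common bean (Phaseolus vulgaris). The genes were taken by words in their descriptions (subtilase, subtilisin, xylem serine peptidase, cysteine peptidase, cysteine proteinase, papain, metacaspase, matrixin and matrix metalloproteinase, leaving out inhibitors), from 27012 gene models in the deposited table. They comprised 66 subtilases, 34 cysteine proteinases, 9 metacaspases and 9 matrix metalloproteinases. RNA was sequenced from the top stems of the wild type A18 and of the mutant nts, 3 samples each. Plants grew in pots at 25 °C with 14 h of light and 10 h of dark, and were sampled at first flowering, when mutant and wild type stem tips looked different. The labels name neither the gene altered in nts nor how the mutant was made, and do not say whether the samples of a genotype were separate plants, so p-values speak only to the spread among these samples, which may be technical.

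Subtilases are serine endopeptidases, most of which are secreted to the cell wall, where they process pro-peptides and wall proteins. Papain-type cysteine proteases act mainly in vacuoles and in the apoplast. In Arabidopsis the xylem cysteine peptidases are stored in the vacuole of differentiating tracheary elements and digest the cell contents after the vacuole bursts, and metacaspase 9 acts in the same cell death. Matrix metalloproteinases are zinc endopeptidases of the cell surface. In the table's gene ontology terms, 63 of the 66 subtilases carried the term cell wall, all 9 metalloproteinases plasma membrane, and 6 of the 9 metacaspases programmed cell death. The cysteine proteinases were of mixed kind. Of the 34, 17 carried the enzyme number of cathepsin L or cathepsin F, the lysosomal papain-type proteases of animals, and 16 of these 17 had the term lysosome. None of the other 17 had that term, 9 of them had the term nucleus, and 4 of the 34 were annotated as proteases of the ubiquitin-like proteins SUMO or NEDD8.

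Total counts were between 40728394 and 62695701 per library. In a principal component analysis of log2 CPM, the first component placed the libraries by genotype, but A18 replicate 2 (-42.5) and nts replicate 3 (46.1) lay between the other A18 libraries (-123 and -128) and the other nts libraries (112 and 135). A18 replicate 2 was the A18 library nearest to the mean of nts in 39 of 85 tested protease genes (45.9%, against 44.0% of all tested genes), and nts replicate 3 was the nts library nearest to A18 in 34 (40.0%, against 43.4%). Counts of called genes are therefore also given without this pair of libraries. The pair was picked from these same data for lying nearest the other genotype. Leaving out either library or both therefore favours calls, and such calls are no independent support for a difference. KNOTTED-like, CLAVATA-related and other shoot meristem genes of the labelled tissue were present, 29 of 46 being detected, with summed levels of 1054 to 1191 FPKM in A18 and 716 to 1184 in nts. Of the 27 that were tested, 4 were lower and 1 higher past a log2 change of 2 in size with an unadjusted p of at most 0.05. These are 14.8% and 3.7%, against 3.37% and 2.06% of all tested genes. Without overlap between genotypes, 10 were lower (37%, against 14.3% of all tested genes) and 3 higher (11.1%, against 10.0%). DESeq2 called 9 of the 27, all lower (33.3%, against 6.46%). The part of these meristem genes in the results below was not tested. FPKM is the authors' fragment level per transcript length and sequencing depth, so it can be compared between genes.

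Differences were tested with edgeR's quasi-likelihood test over all 21126 genes that passed its filter on low counts. Of the 118 protease genes, 17 had 0 counts in all 6 libraries, 101 were detected and 85 were tested. The 16 detected genes that were not tested stayed at or under 0.581 FPKM in every library, except the cysteine proteinase Phvul.011G127300, which had 9.48 FPKM in A18 replicate 2 and 0 counts or 0.141 FPKM elsewhere. At an adjusted p under 0.05, 1 of the 85 was called, a matrix metalloproteinase that was higher in nts. Over all tested genes 0.0331% were called higher and 0.0615% lower. The study's design text sets a minimum log2 change of 2, up or down, with an unadjusted p of at most 0.05. By these thresholds 3 protease genes were higher (3.53%) and 6 lower (7.06%), against 2.06% and 3.37% of all tested genes. An unadjusted p under 0.05 was reached by 9 genes higher and 13 lower in nts, against 8.39% and 9.58% of all tested genes. The levels of the genotypes did not overlap in 28 of the 85. Of these, 10 were higher in nts (11.8%, against 10.0% of all tested genes) and 18 lower (21.2%, against 14.3%). The median log2 change of the 85 genes was -0.16 and that of all tested genes 0.00. Most changes were small, with 59 of the 85 at or under 1 in size.

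The number of called genes turned on the pair of intermediate libraries. Without A18 replicate 2 and nts replicate 3, 10 protease genes were called higher and 15 lower by edgeR, where 9.70% and 10.2% of all tested genes were called. DESeq2 on all 6 libraries called 6 higher and 11 lower, against 4.88% and 6.46% of all tested genes, and 13 of its 17 genes were among the 25. The 17 included each protease gene past the design-text thresholds in the edgeR fit on all 6 libraries. At the design-text thresholds the count without the pair was 15, with 5 higher and 10 lower, where 4.59% of all tested genes were past them as higher and 6.27% as lower.

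**Figure D1:**
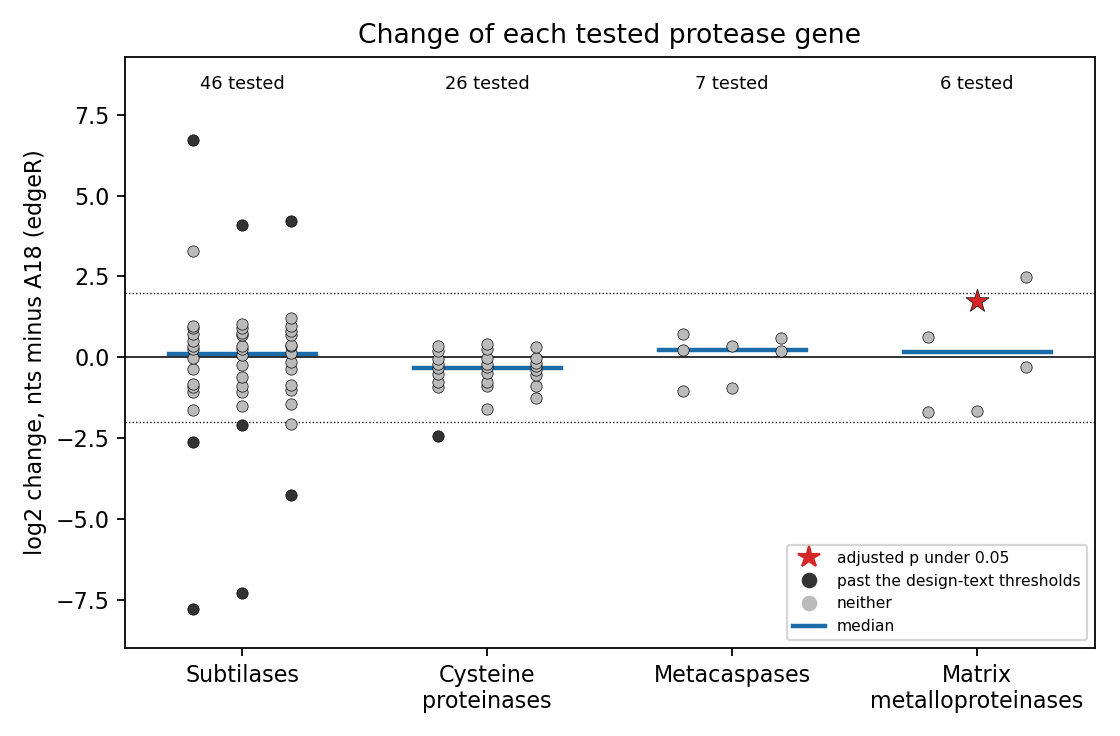
Each point is the edgeR log2 change (nts minus A18) of a tested gene, by family, with the median of the family as a bar and dotted lines at changes of 2 in size. The subtilases spread farthest, from -7.80 to 6.73, while the called metalloproteinase, drawn as a star, stands at 1.73.

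The called gene was Phvul.002G076700 (chromosome 2, 11811230 to 11812273, plus strand), described as a matrix metalloproteinase. It stood at 28.9, 26.9 and 31.5 FPKM in A18 replicates 1 to 3, and at 86.5, 88.7 and 98.9 FPKM in nts replicates 1 to 3. Replicates of a genotype lay close together, and the lowest nts library was far above the highest A18 library. The mean rose from 29.1 ± 2.27 to 91.4 ± 6.63 FPKM (SD, n = 3), a log2 change of 1.73 ± 0.17 (SE; edgeR adjusted p = 0.0378). The intermediate libraries did not stand apart for this gene, A18 replicate 2 being the lowest of its genotype and nts replicate 3 the highest. The size of the change moved little when a library was left out, but the call was lost without A18 replicate 1 (edgeR adjusted p = 0.172), A18 replicate 3 (0.180), nts replicate 1 (0.196) or nts replicate 2 (0.139).

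Phvul.002G076700 closes a run of 4 matrix metalloproteinase genes within 76.4 kb of chromosome 2 (11735913 to 11812273). Its neighbours were at far lower levels. Phvul.002G076400 had between 0.637 and 1.55 FPKM in A18 and between 1.08 and 2.02 in nts, and Phvul.002G076500 and Phvul.002G076600 stayed at or under 0.0812 FPKM in every library. At 60.2 FPKM over the 6 libraries, Phvul.002G076700 was the most abundant metalloproteinase of the 9.

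The other 5 tested metalloproteinases had overlapping genotypes, and single libraries stood out in several. The matrixin Phvul.010G056300 had 3.64, 62.0 and 15.1 FPKM in A18 and 0.855, 0.777 and 23.7 in nts, so that A18 replicate 2 and nts replicate 3 were the highest of all 6. Its log2 change was -1.65 ± 1.59 (edgeR adjusted p = 0.637), 0.03 without A18 replicate 2 and -5.06 without nts replicate 3 (adjusted p = 0.106). Without both of these libraries it was called lower (log2 change -3.41, edgeR adjusted p = 0.042). Phvul.003G055800, the third in abundance, spanned 11.1 to 30.0 FPKM in A18 and 10.9 to 19.9 in nts, with overlapping genotypes. The matrixin Phvul.004G021000 had 0.477, 2.03 and 7.83 FPKM in A18 and 12.6, 41.6 and 1.50 in nts. High values were thus limited to nts replicates 1 and 2, and nts replicate 3 lay within the range of A18 (log2 change 2.49 ± 1.33, edgeR adjusted p = 0.383). Phvul.002G058000 had 7.29, 1.53 and 6.51 FPKM in A18 against 1.40, 1.21 and 1.66 in nts. Only A18 replicates 1 and 3 stood above the rest there (log2 change -1.70 ± 0.58, edgeR adjusted p = 0.198), and the gene was called lower without A18 replicate 2 (-2.09, edgeR adjusted p = 0.0402). DESeq2 on all 6 libraries also called it lower (adjusted p = 0.0435). The matrixin Phvul.009G192900 had 0 counts in all libraries.

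**Figure D2:**
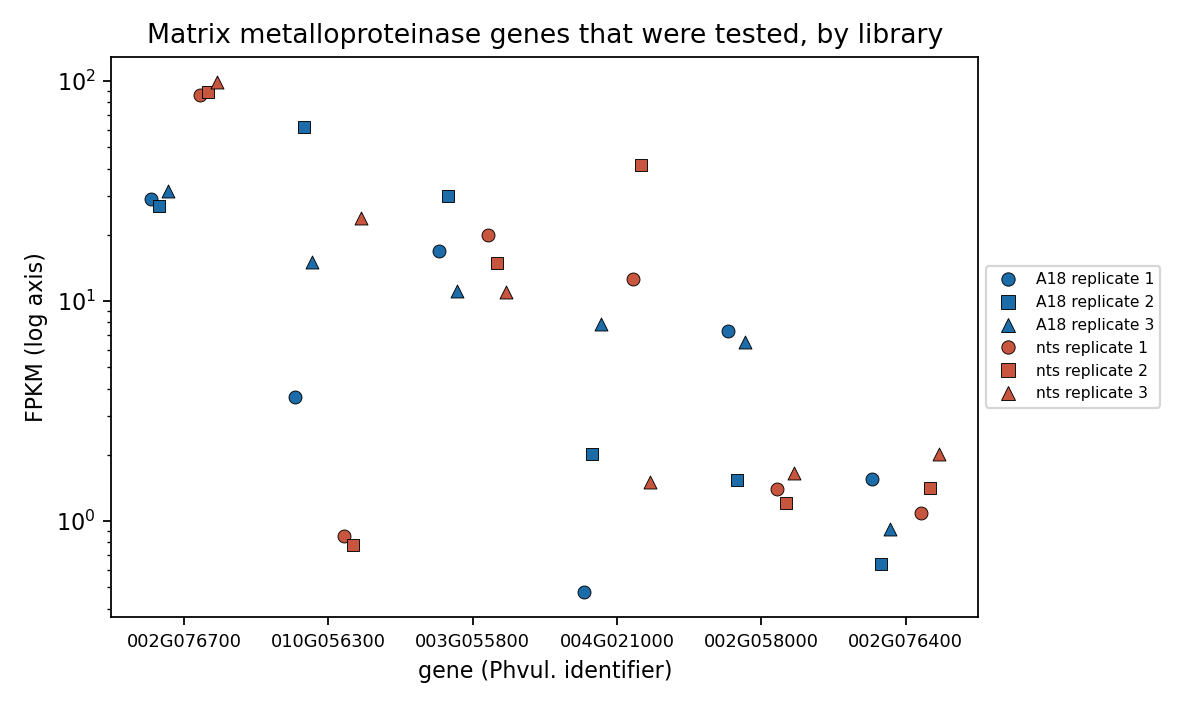
FPKM on a log axis in each of the 6 libraries for the 6 tested matrix metalloproteinase genes, A18 in blue and nts in red, with a symbol for each replicate. For 002G076700 the 3 nts libraries, from 86.5 to 98.9, lie above the 3 A18 libraries, from 26.9 to 31.5, and for each of the other 5 genes the genotypes overlap.

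The descriptions of 7 genes named a xylem peptidase, and 6 of these were tested. The 4 tested xylem serine and xylem cysteine peptidases had negative log2 changes, as had 10524 of all 21126 tested genes. Of the 4, 2 were past the design-text thresholds as lower in nts (50%, against 3.37% of all tested genes). The 2 xylem bark cysteine peptidases had positive log2 changes. Xylem cysteine peptidase 2 (Phvul.009G008100, chromosome 9, 1242178 to 1243569) had 22.2, 96.9 and 105 FPKM in A18 and 11.1, 17.2 and 11.9 in nts. All nts libraries lay under the lowest A18 library, A18 replicate 1, which was itself far under the other A18 libraries. The log2 change was -2.43 ± 0.60 (unadjusted p = 0.00575, edgeR adjusted p = 0.120), and it stayed past the design-text thresholds in all 6 fits that left out 1 library. DESeq2 on all 6 libraries called the gene lower (adjusted p = 0.00107). EdgeR without both A18 replicate 2 and nts replicate 3 did not call it (-2.08, edgeR adjusted p = 0.119). Xylem cysteine peptidase 1 (Phvul.009G008200) is the next listed gene of these families, within the same 27.9 kb. It had 6.59, 30.8 and 23.0 FPKM in A18 and 4.38, 9.26 and 5.78 in nts. A18 replicate 1 was again the lowest A18 library, and it overlapped with nts here (log2 change -1.61 ± 0.62, edgeR adjusted p = 0.243). DESeq2 on all 6 libraries did not call xylem cysteine peptidase 1 (adjusted p = 0.0755). Nor was it called by edgeR without both A18 replicate 2 and nts replicate 3 (-1.03, edgeR adjusted p = 0.339). A further gene of that name on chromosome 11, Phvul.011G131400, had 0 counts in A18 and at most 0.325 FPKM in nts.

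Xylem serine peptidase 1, a subtilase named for its presence in Arabidopsis xylem, was represented by a pair of genes. Phvul.010G088400 (chromosome 10, 33810979 to 33816173) had 0.485, 0.929 and 5.80 FPKM in A18, and 0.0243, 0 and 0 in nts. It was low in every library but A18 replicate 3, and nearly absent from nts, with 4 counts summed over nts against 965 over A18. The edgeR adjusted p was 0.0907 and the unadjusted p 0.00239. DESeq2 on all 6 libraries called the gene lower (adjusted p = 1.24e-06). Without both A18 replicate 2 and nts replicate 3 edgeR called it lower as well (edgeR adjusted p = 0.0456). Phvul.008G073700 had 2.42, 8.20 and 9.71 FPKM in A18 and 0.412, 0.340 and 3.81 in nts, where replicate 3 reached into the range of A18. Its log2 change of -2.07 ± 1.08 passed the size but not the p of the design text (edgeR adjusted p = 0.371). It was called lower without nts replicate 3 (log2 change -4.12, edgeR adjusted p = 0.048) and without both that library and A18 replicate 2 (-3.90, adjusted p = 0.0308).

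The xylem bark cysteine peptidase 3 genes, named for a papain-type protease of xylem and bark, had overlapping genotypes in one case and slightly higher nts libraries in the other. Phvul.006G175500 ranged from 25.0 to 78.2 FPKM in A18 and from 51.6 to 75.5 in nts (log2 change 0.40). Phvul.009G013000 was almost constant, from 34.5 to 38.2 FPKM in A18 and from 39.7 to 41.9 in nts (log2 change 0.24 ± 0.16, edgeR adjusted p = 0.484).

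Markers of secondary walls were also mostly lower in nts. Of 53 marker genes (FASCICLIN-like arabinogalactan-proteins 11 and 12, cellulose synthase A4 and laccase genes), 45 were tested, with a median log2 change of -4.49. Past the design-text thresholds, 29 were lower (64.4%, against 3.37% of all tested genes) and 1 higher (2.22%, against 2.06%). The summed level of the 53 was 7704 to 10455 FPKM in A18 and 517 to 2706 in nts, highest within nts in replicate 3. Between 14 and 20 of the 53 had 0 counts in a given nts library, against 4 to 7 in A18. The share of the xylem peptidase difference that goes with the amount of xylem in the samples was not tested, and fewer xylem cells cannot be told apart from less RNA per cell in such bulk samples. Within A18, replicate 1 had the highest marker sum, and each of the 4 tested xylem serine and cysteine peptidases was lowest there. Most of the marker sum came from 22 FASCICLIN-like genes, with 9145, 4966 and 7722 FPKM in A18 replicates 1 to 3, of 10455, 7704 and 10112. The rest of the sum was smallest in A18 replicate 1, so the order of the markers within A18 depended on which were summed.

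**Figure D3:**
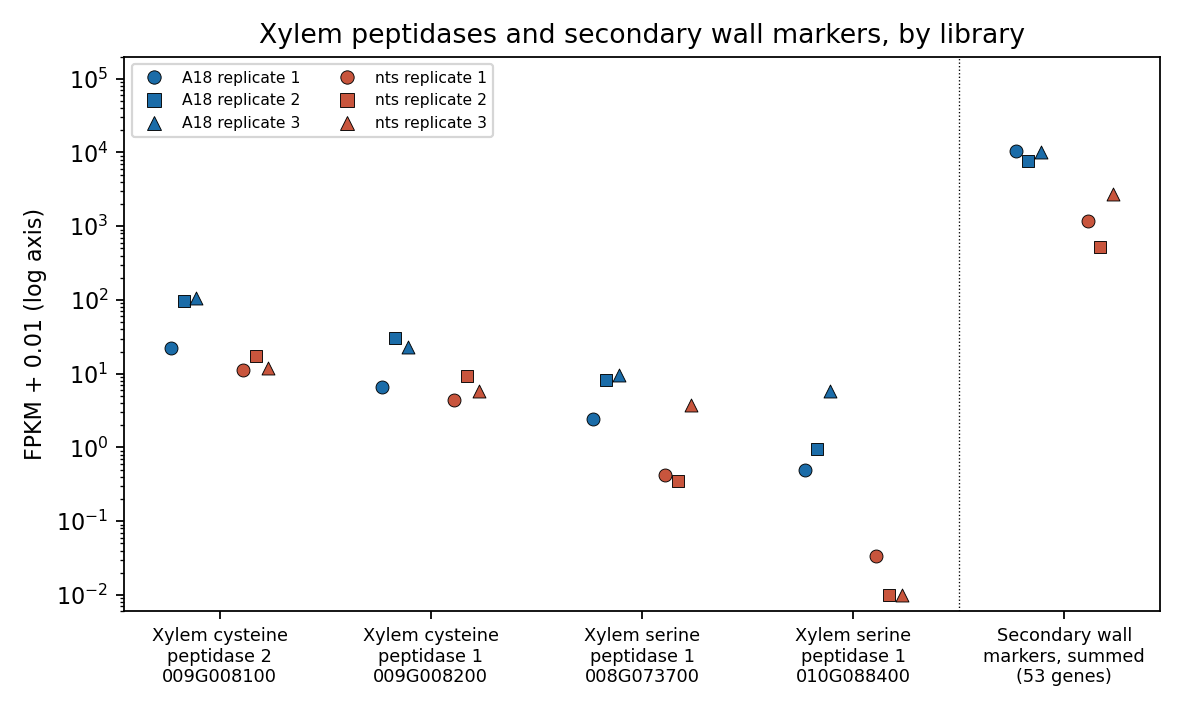
FPKM plus 0.01 on a log axis in each library for the 4 tested xylem serine and cysteine peptidase genes and, right of the dotted line, for the sum of 53 secondary wall marker genes; A18 is blue, nts red, with a symbol for each replicate. A18 replicate 1 is the lowest A18 library for each peptidase, at 22.2 FPKM for 009G008100, and the highest for the marker sum, at 10455. Most of that sum comes from 22 FASCICLIN-like genes, and the rest of it is smallest in A18 replicate 1.

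By mean FPKM over the 6 libraries, the 3 most abundant single genes were papain-type proteases. By family sum, the cysteine proteinases were above the subtilases in all A18 libraries and nts replicate 3. They were below them in nts replicates 1 and 2 (1365 and 1450 against 1613 and 1975 FPKM). The 5 most abundant of the 118 genes held 48.1% of the summed FPKM, and 3 of these 5 were cysteine proteinases with a cathepsin number. Summed over the 17 genes with such a number, the level was 2400, 2184 and 2991 FPKM in A18 and 1139, 1214 and 1959 in nts. Every nts library was under every A18 library, nts replicate 3 being the nearest. Most of this sum in each library came from the 3 genes named in the next paragraph. The rest of the sum overlapped between genotypes, so the gap was that of these 3 genes. Of the 11 tested genes with such a number, 8 had a negative and 3 a positive log2 change. The 17 other cysteine proteinases summed to 252, 285 and 258 FPKM in A18 and 226, 236 and 196 in nts, a much smaller gap but also without overlap. None of the 26 tested cysteine proteinases was called by edgeR over all genes, and 21 of the 26 had a negative log2 change (median -0.32). An unadjusted p under 0.05 was reached by 4, all lower (15.4%, against 9.58% of all tested genes), DESeq2 called 2, both lower (7.69%, against 6.46%), and edgeR without both A18 replicate 2 and nts replicate 3 called 3, all lower (11.5%, against 10.2%). The split by enzyme number was made after values had been seen.

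The most abundant of all 118 genes by mean over the 6 libraries was the papain family protease Phvul.009G013600 (chromosome 9, 2241921 to 2243444), with a cathepsin F number. It had 788, 646 and 946 FPKM in A18 and 303, 300 and 581 in nts. In nts alone its mean of 395 FPKM was just under that of the subtilase Phvul.008G213300 (398). The cysteine proteinase Phvul.001G220100, with a cathepsin L number, had 679, 596 and 746 FPKM in A18 and 196, 268 and 558 in nts. Phvul.001G009900, again of the papain family, had 636, 379 and 629 FPKM in A18 and 284, 253 and 361 in nts. In all 3 genes the genotypes did not overlap and nts replicate 3 was the highest nts library. The log2 changes were -0.91 ± 0.36, -0.89 ± 0.43 and -0.77 ± 0.29 (edgeR adjusted p = 0.254, 0.341 and 0.229), and without A18 replicate 2 and nts replicate 3 all 3 were called (edgeR adjusted p = 0.0178, 0.0175 and 0.0250). Phvul.001G220100 was also called without nts replicate 3 alone (log2 change -1.48, edgeR adjusted p = 0.0432). Of the 3, DESeq2 on all 6 libraries called only Phvul.001G009900 (adjusted p = 0.0482).

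**Figure D4:**
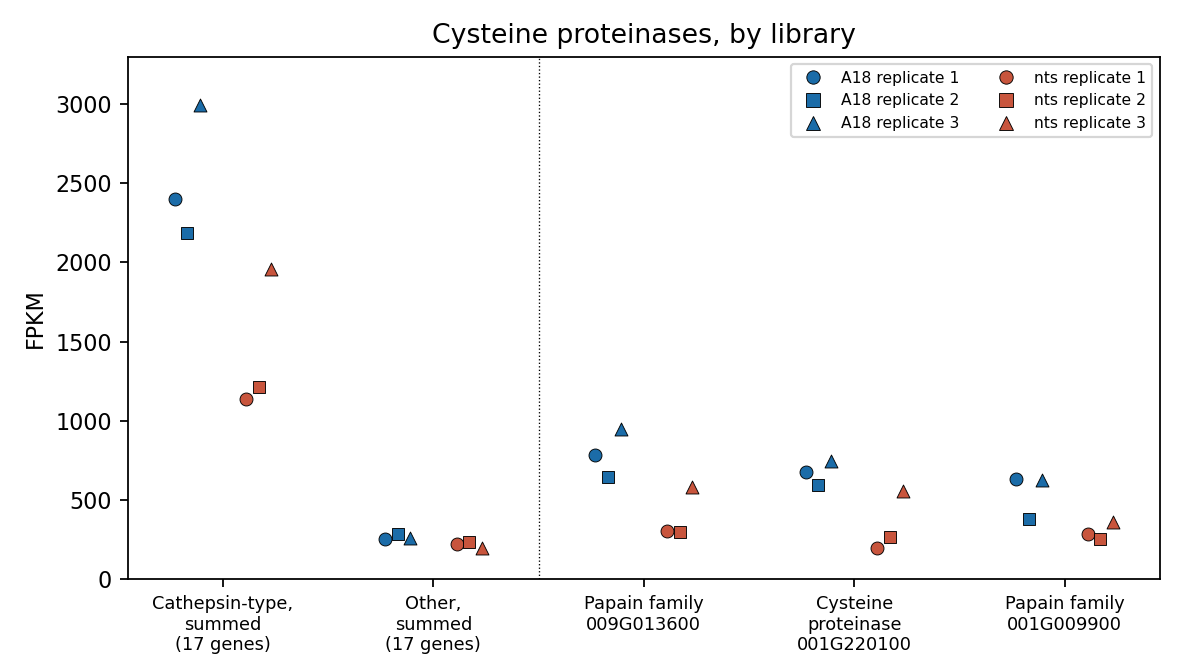
FPKM in each library, summed over the 17 cysteine proteinases with a cathepsin enzyme number and over the 17 without, and, right of the dotted line, for the 3 most abundant cysteine proteinases; A18 is blue, nts red, with a symbol for each replicate. The cathepsin-type sum is 2184 or more in the A18 libraries and 1959 or less in the nts libraries, and most of it comes from the 3 genes at the right.

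Metacaspases, cysteine proteases with a caspase-like fold but a different cleavage specificity, summed to 151, 160 and 142 FPKM in A18 and to 206, 181 and 215 in nts, mostly through metacaspase 5. Of 7 tested, none was called by edgeR or DESeq2, and 1 had an unadjusted p under 0.05 (14.3%, against 18% of all tested genes). Without both A18 replicate 2 and nts replicate 3, edgeR called 1, metacaspase 3, as lower (14.3%, against 19.9% of all tested genes in either direction). Metacaspase 5 (Phvul.011G180300, chromosome 11, 49204581 to 49207275) had 116, 128 and 110 FPKM in A18 and 180, 153 and 175 in nts, without overlap (log2 change 0.59 ± 0.22, edgeR adjusted p = 0.228). Its neighbour of the same name, Phvul.011G180200, was expressed at 1.83 to 3.24 FPKM in A18 and 2.50 to 3.35 in nts. Metacaspase 1 (Phvul.008G138300) ranged from 17.8 to 19.2 FPKM in A18 and from 20.1 to 22.2 in nts; it overlaps Phvul.008G138400 on the other strand, and whether the counting used strand is not given in the sources used here. Metacaspase 3 (Phvul.002G210000) pointed the other way, with 7.63, 5.72 and 5.86 FPKM in A18 and 1.53, 2.10 and 5.03 in nts (log2 change -1.05 ± 0.50, edgeR adjusted p = 0.334). It was called lower without nts replicate 3 (-1.76, edgeR adjusted p = 0.048) and without both that library and A18 replicate 2 (-1.79, adjusted p = 0.0275).

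Metacaspase 9 (Phvul.001G101400), whose Arabidopsis namesake acts in the death of xylem vessels, showed no separation. It had 1.35, 0.383 and 4.71 FPKM in A18 and 0.236, 0.604 and 5.88 in nts, so that replicate 3 was the highest of each genotype. The log2 change was 0.20 ± 1.33 (edgeR adjusted p = 0.958), and -2.24 without nts replicate 3. Metacaspase 2 (Phvul.006G205900) was at 1.62 to 3.43 FPKM in A18 and 0.428 to 2.56 in nts. The metacaspase 1 gene Phvul.002G209900 did not exceed 1.12 FPKM and metacaspase 4 (Phvul.005G046100) 0.165 FPKM in any library, and the second metacaspase 3 gene, Phvul.006G206000, had 0 counts throughout.

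Subtilases went both ways. Of 46 tested, 24 had a positive and 22 a negative log2 change (median 0.10), and none was called by edgeR over all genes. Past the design-text thresholds, 3 were higher (6.52%, against 2.06% of all tested genes) and 5 lower (10.9%, against 3.37%). An unadjusted p under 0.05 was reached by 15, with 7 higher (15.2%, against 8.39% of all tested genes) and 8 lower (17.4%, against 9.58%). DESeq2 called 13 (28.3%, against 11.3%), with 5 higher and 8 lower, and edgeR without both A18 replicate 2 and nts replicate 3 called 18 (39.1%, against 19.9%), with 9 higher and 9 lower. The summed level of the 66 genes overlapped between genotypes, at 1766, 2208 and 1898 FPKM in A18 and 1613, 1975 and 1665 in nts.

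Among the 5 subtilases past the design-text thresholds as lower, Phvul.011G012100 was the most abundant, with 45.7, 15.0 and 37.5 FPKM in A18 and 4.63, 12.3 and 4.43 in nts. A18 replicate 2 and nts replicate 2 nearly met (log2 change -2.10 ± 0.53, edgeR adjusted p = 0.125), and the change was under 2 in size or missed the p in 3 of the 6 fits that left out 1 library (A18 replicate 1, nts replicate 1 or nts replicate 3). Phvul.006G108700 (chromosome 6, 21815573 to 21817870) had the smallest p of the family. It was weakly expressed in A18, at 1.75, 3.07 and 2.44 FPKM, and nearly absent from nts, at 0.171, 0.117 and 0.0597. The log2 change was -4.25 ± 0.56 (unadjusted p = 0.000171, edgeR adjusted p = 0.0564), and it stayed past the design-text thresholds whichever library was left out. DESeq2 on all 6 libraries called it lower (adjusted p = 2.85e-12). EdgeR called it without A18 replicate 2 (edgeR adjusted p = 0.036) and without nts replicate 3 (0.0307).

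The subtilisin-like genes Phvul.009G018500 and Phvul.009G018600 are neighbours within 33.8 kb of chromosome 9 (3499167 to 3532961), and both were lower. Phvul.009G018500 had 2.48, 2.35 and 2.92 FPKM in A18 and 0, 0 and 0.0411 in nts, or 1070 counts summed over A18 against 6 over nts (edgeR adjusted p = 0.0732, and 0.0185 without nts replicate 3). Phvul.009G018600 had 9.71, 16.4 and 36.4 FPKM in A18 and 0.822, 7.34 and 1.46 in nts. Its libraries did not overlap but varied widely in both genotypes (log2 change -2.64 ± 0.91, edgeR adjusted p = 0.205), and it missed the design-text thresholds without A18 replicate 3, nts replicate 1 or nts replicate 3. DESeq2 on all 6 libraries called both neighbours lower (adjusted p = 1.27e-10 for Phvul.009G018500 and 0.0172 for Phvul.009G018600).

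The 3 subtilases past the design-text thresholds as higher in nts were at low levels. Subtilase 1.3 (Phvul.004G124600, chromosome 4, 41968196 to 41970541) had 0, 0.139 and 0 FPKM in A18 and 4.96, 7.30 and 1.91 in nts. Summed counts were 16 in A18 and 2201 in nts (edgeR adjusted p = 0.113, and 0.0303 without A18 replicate 2). DESeq2 on all 6 libraries called the gene higher (adjusted p = 0.0287). It was nearly absent from every A18 library and past the thresholds in all fits that left out 1 library. Outside the rule for naming genes, and picked after its values were seen, Phvul.001G165266 had 0.0471, 0 and 0.122 FPKM in A18 and 0.656, 2.17 and 0.0597 in nts, so nts replicate 3 lay within A18 (log2 change 4.08, edgeR adjusted p = 0.246). Without A18 replicate 1, A18 replicate 2, nts replicate 1 or nts replicate 2 it missed the design-text thresholds. Markers of the epidermis, 6 protodermal factor genes of which 4 were detected, were also higher in nts replicates 1 and 2, with a summed level of 0.283, 3.38 and 0.107 FPKM in A18 and 225, 676 and 3.88 in nts. Their part in these differences was not tested.

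The third higher subtilase belongs to the largest of 16 runs of neighbouring protease genes, defined by gaps of at most 100 kb and holding 42 of the 118 genes. This run holds 9 subtilases within 207 kb of chromosome 8 (57886946 to 58093522), and its ends behaved differently. At the start, Phvul.008G228714 had 167, 433 and 449 FPKM in A18 and 124, 347 and 95.5 in nts, and Phvul.008G228700 121, 301 and 332 in A18 and 93.9, 251 and 67.9 in nts. These are the second and the fourth most abundant of the 66 subtilases, with overlapping genotypes. Their levels kept a ratio of 1.32 to 1.44 in all 6 libraries, and as the handling of reads shared between copies is not given in the sources used here, the split between this pair is uncertain.

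At the far end of the run, Phvul.008G229400 had 0, 0.402 and 0.0912 FPKM in A18 and 3.07, 3.58 and 2.62 in nts (log2 change 4.22 ± 1.35, edgeR adjusted p = 0.183). It was past the design-text thresholds except without A18 replicate 3. Phvul.008G229300 beside it had 0, 0.318 and 0 FPKM in A18 and 1.33, 0.635 and 1.22 in nts (log2 change 3.29 ± 1.78, edgeR adjusted p = 0.391). Phvul.008G229500 had 0 counts in A18 and 0.530, 0.0635 and 0.358 FPKM in nts, and did not pass the filter. For all 3 the genotypes did not overlap. The 4 genes between the ends had 0 counts in most libraries and at most 0.292 FPKM.

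**Figure D5:**
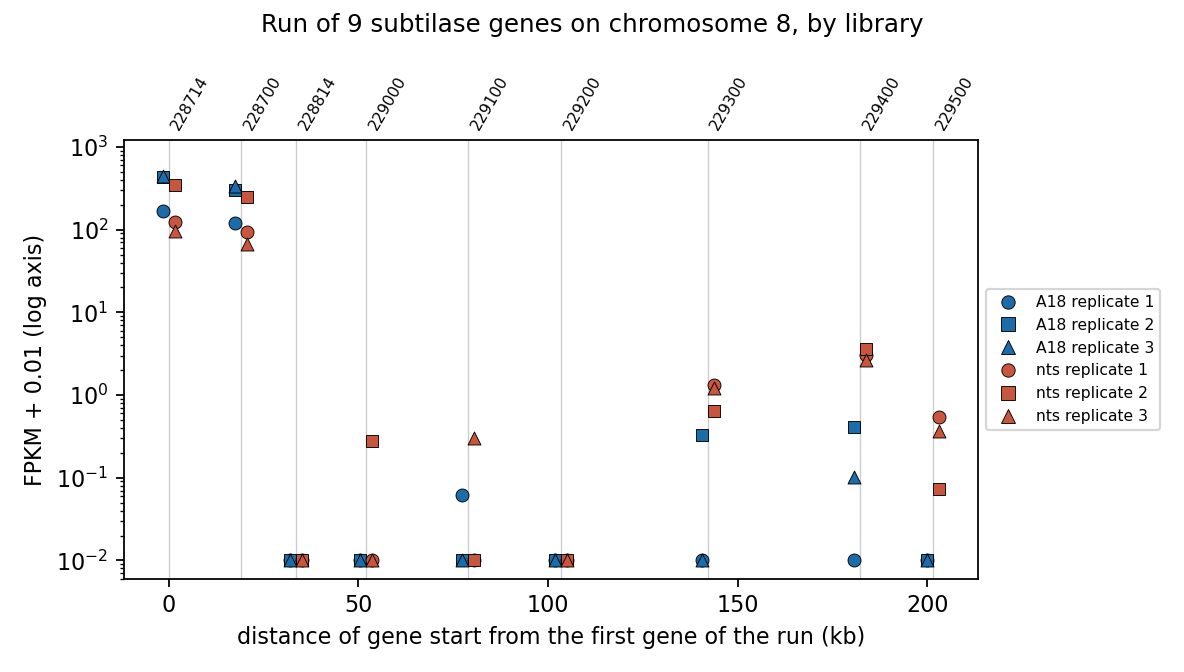
FPKM plus 0.01 on a log axis in each library for the 9 subtilase genes of the run on chromosome 8, against the distance of each gene's start from the first gene in kb; labels give the end of the identifier, A18 is blue and nts red, with a symbol for each replicate. The first pair of genes stands above 60 FPKM in every library with the genotypes mixed, and at the last 3 genes the nts libraries, up to 3.58, lie above the A18 libraries.

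The most abundant subtilase, Phvul.008G213300 (chromosome 8, 56136680 to 56140703), had 290, 219 and 142 FPKM in A18 and 398, 359 and 438 in nts. Every nts library was above every A18 library, and the A18 libraries themselves spread widely (log2 change 0.96 ± 0.33, edgeR adjusted p = 0.203). Phvul.001G026100, the third in abundance, had 305, 465 and 162 FPKM in A18 and 22.1, 16.6 and 247 in nts. Only nts replicates 1 and 2 were low, and nts replicate 3 was within the range of A18 (log2 change -1.64 ± 1.11, edgeR adjusted p = 0.494). The gene was called lower without nts replicate 3 (-3.98, edgeR adjusted p = 0.0385) and without both that library and A18 replicate 2 (-3.48, adjusted p = 0.0105). Chosen after their values were seen, the PA-domain subtilase Phvul.009G236800 had 33.1, 40.8 and 31.5 FPKM in A18 and 60.9, 59.1 and 66.9 in nts (log2 change 0.89 ± 0.23, edgeR adjusted p = 0.127), and Phvul.006G168800 had 5.84, 7.35 and 8.60 in A18 and 1.83, 3.47 and 1.98 in nts (log2 change -1.51 ± 0.32, edgeR adjusted p = 0.0967). Neither had an overlap between genotypes.

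Other proteases and their inhibitors were read from description lists in the same fit, and edgeR called none of them over all genes. Against 11.3% of all tested genes, DESeq2 called 6 of 13 other cysteine proteases (46.2%), 12 of 66 aspartyl proteases (18.2%), 10 of 40 serine carboxypeptidases (25.0%), 3 of 22 inhibitors (13.6%) and 1 of 19 genes of xylem cell death (5.26%). An unadjusted p under 0.05 was reached by 6, 16, 11, 5 and 2 of them, or 46.2%, 24.2%, 27.5%, 22.7% and 10.5%. Over all tested genes 18% reached it in either direction, 8.39% as higher and 9.58% as lower. Cysteine proteases with other descriptions, among them the vacuolar processing enzymes that mature vacuolar proteins, had 13 tested members (median log2 change -0.43). Past the design-text thresholds, 3 were lower (23.1%, against 3.37% of all tested genes) and 0 higher (against 2.06%). Gamma vacuolar processing enzyme (Phvul.001G033500) had 214, 56.4 and 353 FPKM in A18 and 15.7, 16.5 and 55.4 in nts, and beta vacuolar processing enzyme (Phvul.003G217500) 70.8, 52.0 and 140 in A18 and 4.25, 2.31 and 13.0 in nts. In both genes the nts libraries lay under all A18 libraries, by a narrow margin for the gamma gene (log2 changes -2.69 ± 0.79 and -3.63 ± 0.75, edgeR adjusted p = 0.162 and 0.0903). The third was a senescence-associated gene 12 (Phvul.011G127100), with at most 1.53 FPKM in A18 and 0 counts in nts.

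Aspartyl proteases, many of them secreted, had 66 tested members (median log2 change -0.16). Past the design-text thresholds, 3 were higher and 3 lower (4.55% each, against 2.06% and 3.37% of all tested genes). The widest gap was in Phvul.009G151500, with 882, 236 and 756 FPKM in A18 and 3.52, 3.68 and 25.1 in nts (log2 change -5.71 ± 1.08, edgeR adjusted p = 0.0801). Serine carboxypeptidases had 40 tested members with 2 higher and 2 lower (5% each, median 0.13). Serine carboxypeptidase-like 45 (Phvul.002G282700) had 4.53, 11.1 and 2.52 FPKM in A18 and 50.1, 22.1 and 71.0 in nts, and serine carboxypeptidase-like 42 (Phvul.009G134900) 18.1, 38.2 and 21.1 in A18 and 3.21, 2.23 and 3.88 in nts. Of 22 tested protease inhibitors, 1 was lower (4.55%) and 0 higher (median -0.23). The lower gene, Phvul.009G226200, is described as related to the heavy chain of an inhibitor of trypsin. Of 19 tested genes drawn by words for nucleases and NAC factors of xylem cell death, 1 was lower (5.26%) and 0 higher (median -0.31). It was vascular related NAC-domain protein 1 (Phvul.003G260500), of a family that switches on vessel formation in Arabidopsis, with 2.42, 3.63 and 2.53 FPKM in A18 and 0.703, 0.318 and 0.0695 in nts. That list also took in exoribonucleases and splicing endonucleases, which are not known from xylem cell death.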

How the data were processed

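RNA sequencing of A18 and nts top stems, with 3 samples each, used cutadapt 1.9 and FastQC, as the submitters' processing notes list them. Aligner, counting tool, strand setting, genome build and annotation are not stated there, so coordinates stand as in the deposited table. Raw counts per gene and FPKM values were deposited by the authors, per the file headers. Low counts pile up on multiples of 4 (29.8% to 33.0% of counts from 1 to 39), so a count need not be 1 fragment. FPKM of genes with 0 counts was set to 0.

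Counts were tested with edgeR 4.0.16 in R 4.3.3 (robust quasi-likelihood fit, TMM factors, filterByExpr, genotype as the only term, Benjamini-Hochberg adjustment over 21126 genes). Log2 changes are nts minus A18, and the SE is the change over the root of its F statistic. On simulated data for this comparison (21126 genes), true changes of 2-fold were recovered for 0 of 50 genes, those of 4-fold for 11, of 8-fold for 33 and of 16-fold for 43, with 4 calls among 20926 unchanged genes. With a common biological coefficient of variation of 0.488, replicate spread limits precision more than depth. No library was a duplicate, the chi-square per gene between replicates being 136 to 450. No sequences of these genes were used here.

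The protease genes, the lists and the rule for naming genes were chosen with earlier results of these data known. The rule took called genes, genes past the design-text thresholds with a mean of at least 1 FPKM in the higher genotype, the 3 most abundant of each family, and all tested xylem peptidases, metacaspases and metalloproteinases. Alternatives were DESeq2 1.42.0, other scaling factors and filters, a replicate block, limma 3.58.1 on log2(FPKM + 1) or log2(FPKM + 0.1), and leaving out libraries.
Marker lists were also read for other tissues, given as median log2 change and genes past the design-text thresholds of those tested. These were phloem (-0.17, 1 of 15), photosynthetic tissue (0.40, 0 of 72), flower (-0.54, 2 of 16), seed (-0.12, 16 of 82) and senescence (-0.39, 2 of 10). Over all tested genes 2.06% were past the thresholds as higher and 3.37% as lower. In seed these shares were 8.54% and 11%, and 12.5% of flower and 20% of senescence genes were lower. Of the photosynthetic genes, 16 had an unadjusted p under 0.05, all higher (22.2%, against 8.39% of all tested genes). The part of these tissues in the results above was not tested.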

Additional observations from a re-analysis of the deposited data

How the results depend on the processing

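The metalloproteinase Phvul.002G076700 kept its direction in all 16 alternatives (log2 change 1.62 to 1.79, adjusted p 9.05e-20 to 0.196) and was called in 11. It was not called with a replicate block (adjusted p = 0.137) or in 4 of the 6 fits that left out 1 library. The number of called genes was 20 and that of called protease genes 1. These became 2395 and 17 with DESeq2, 37 and 1 with no filter on low counts, 4198 and 25 without both A18 replicate 2 and nts replicate 3, 438 and 5 with limma on log2(FPKM + 1), 450 and 5 on log2(FPKM + 0.1), and 287 and 4 on log2(FPKM + 1) with no filter. Leaving out 1 library gave 0 to 981 genes and 0 to 7 protease genes, the high values being those without A18 replicate 2 (968 and 7) or nts replicate 3 (981 and 7). Protease genes past the design-text thresholds were 9. They were 15 without the pair of libraries and 5 with limma on log2(FPKM + 1), filtered or not, and 6 to 12 with 1 library left out. The cause of these shifts was not tested. Same-numbered samples did not deviate together (r = -0.02, -0.10 and 0.04 for numbers 1 to 3), and the replicate block, which takes up degrees of freedom, gave 0 called genes and 0 called protease genes.

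Of the 31 named and tested protease genes, 28 kept their direction throughout. Metacaspase 9 (Phvul.001G101400) reversed from 0.20 to -0.36 with the replicate block, -0.15 with limma on log2(FPKM + 1) with or without a filter, -0.42 on log2(FPKM + 0.1) and -2.75 without the pair of libraries, and had -2.24 to 1.48 with 1 library left out, below 0 in 3 of these fits. Phvul.003G055800 reversed from -0.30 to 0.43 without the pair and had -0.60 to 0.30 with 1 library left out, and Phvul.010G056300 had -5.06 to 0.032, the highest value being that without A18 replicate 2.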
